A study of Mus musculus with 8 samples.

Results

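The genes described here are 10 chemokine genes of primary mouse chondrocytes: Ccl2, Ccl5, Ccl7, Ccl20, Cxcl1, Cxcl2, Cxcl5, Cxcl12, Cxcl16 and Cx3cl1. They were taken by gene symbol from an expression table of 24067 genes, in which all 10 had a row. The table gives FPKM, fragments counted per length of transcript and per depth of the library, in 8 RNA libraries. Chondrocytes came from the femoral condyles and tibial plateaus of ICR mice aged 5 days and were grown in serum-containing medium at low oxygen. The 4 libraries named miR-Ctrl were transfected with 50 nM of a control mimic and the 4 named miR-204 with 50 nM of a miR-204 mimic, both for 24 h, and RNA was taken 24 h after that. The labels do not tell whether replicates of a group come from different cultures or mice. The p-values therefore reflect the scatter among these 8 libraries and no more, and that scatter may be technical.

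Chemokines are small secreted proteins that bind heparan sulfate and G-protein-coupled receptors and steer the movement of leukocytes. CXC members with a glutamate-leucine-arginine motif (Cxcl1, Cxcl2 and Cxcl5) draw neutrophils, and the CC members Ccl2 and Ccl7 draw monocytes. Chondrocytes exposed to interleukin-1 or tumour necrosis factor are known to make many of them, largely through NF-kB, a family of transcription factors held in the cytoplasm by inhibitor proteins until a signal arrives. A microRNA mimic, a synthetic copy of the mature microRNA, is loaded into Argonaute and lowers transcripts whose 3′ UTR pairs with its seed.

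All 10 genes passed the minimum of 1 FPKM on average over the 8 libraries, and all 10 fold changes lay above 0, with a median of 0.55 on the log2(FPKM + 1) scale. Cxcl2 reached that minimum only through replicate 2, with means of 0.434 FPKM (miR-Ctrl) and 0.955 FPKM (miR-204) without it. Of all 11612 tested genes, 74.1% lay above 0, and their median was 0.064. In the comparison of the groups without regard to replicate numbers, 0 of the 10 were higher and 0 were lower by limma. Of all tested genes, 0.0258% were called higher and 0.181% lower. At an unadjusted p under 0.05 by limma, 1 of the 10 was higher and 0 were lower. Of all 11612 tested genes, 763 were higher and 235 were lower at that level. With the replicate number as a block, 6 of the 10 rose, against 12.4% of all tested genes, and 0 fell, against 2.83%. The 6 were Ccl5, Cxcl16, Cx3cl1, Ccl2, Cxcl2 and Ccl20. With libraries centred on their median, Ccl5, Cxcl16, Cx3cl1 and Ccl2 rose, against 4.99% of all tested genes. Without both replicate 2 libraries the paired fit called 7 of the 10 higher, and without both libraries of replicates 1, 3 or 4 it called 2, 2 and 1. The number of all 11612 tested genes called higher moved likewise, from 1436 to 2781 without replicate 2 and to 89, 236 and 42 without replicates 1, 3 and 4. Only Ccl5 passed in all 9 paired fits that were run. RNA of a whole culture was measured, so more cells of a kind and more RNA per cell cannot be told apart.

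Replicate 2 was the highest library of both groups for all 10 genes, as it was for 38.4% of all tested genes. Replicate 1 was second in both groups for all 10, and the share of all tested genes with that order was not computed. Together the 10 genes summed to 2746 FPKM in miR-Ctrl replicate 2 and to 2844 in miR-204 replicate 2. The sums were 142 and 207 in replicate 1, and between 14.5 and 36.7 in the 4 libraries of replicates 3 and 4. The values of replicate 2 are therefore given apart below.

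**Figure D1:**
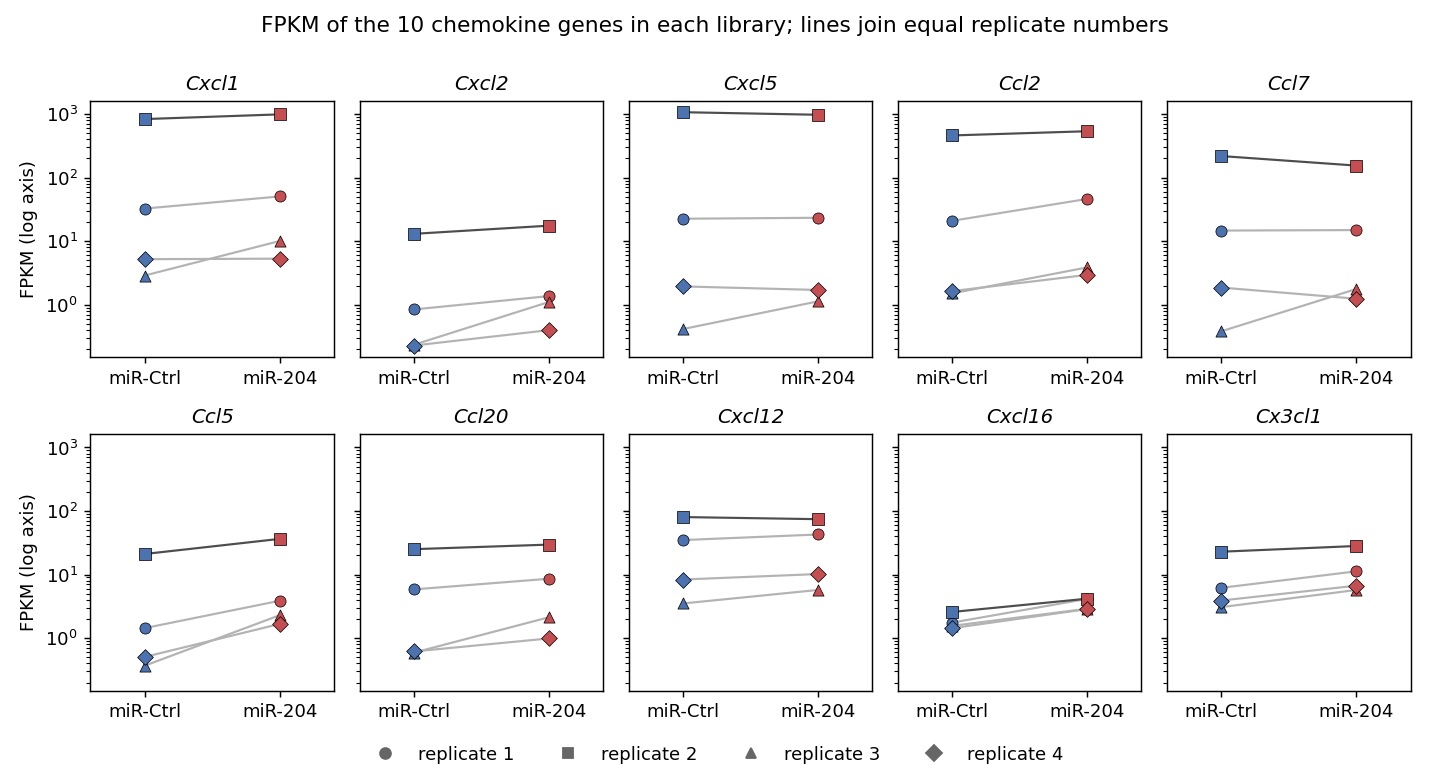
FPKM on a log axis of each of the 10 chemokine genes (panels) in the miR-Ctrl and miR-204 libraries, 1 point per library, with marker shapes for replicates 1 to 4 and lines joining equal numbers. Replicate 2 (squares, dark line) lies highest in every panel, and the lines mostly run upwards, but the groups overlap in every panel but that of Cxcl16.

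The neutrophil attractants Cxcl1, Cxcl2 and Cxcl5 lie close together on chromosome 5 (GRCm38, the assembly of mm10), Cxcl5 at 90759360 to 90761624, Cxcl1 at 90891241 to 90893115 and Cxcl2 at 90903871 to 90905938, all on the plus strand. Cxcl5 (gene ID 20311) was at 22.5, 1069, 0.413 and 1.94 FPKM in miR-Ctrl replicates 1 to 4 and at 23.3, 974, 1.13 and 1.70 FPKM in miR-204 replicates 1 to 4. Its highest miR-Ctrl library was 2588-fold above the lowest. Among all 11612 tested genes, its spread within groups (SD 4.19 on the log2 scale) was exceeded by that of 1 gene. Its difference between groups, a log2 fold change of 0.096, was positive in 2 pairs and negative in 2, and it passed neither test (adjusted p = 0.999, and 0.612 with the block). The 95% interval of the paired difference ran from -0.20 to 0.39.

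Cxcl1 (14825) was at 32.5, 833, 2.87 and 5.20 FPKM in miR-Ctrl replicates 1 to 4 and at 50.5, 989, 10.1 and 5.30 FPKM with miR-204. Libraries of replicate 2 stood 25.6-fold and 19.6-fold above the next highest of their group. All 4 pairs were higher with miR-204, by 0.62, 0.25, 1.51 and 0.022 on the log2 scale, so pair 4 hardly differed. The log2 fold change of 0.60 passed neither test (adjusted p = 0.973, and 0.115 with the block), with a paired 95% interval from 0.052 to 1.15. Cxcl2 (20310) was the least abundant of these 3 genes. Its levels were 0.841, 13.0, 0.234 and 0.228 FPKM in miR-Ctrl replicates 1 to 4 and 1.37, 17.5, 1.10 and 0.397 FPKM with miR-204. Every miR-204 library exceeded the miR-Ctrl library of its number, although the groups overlapped. Without replicate 2, which alone brought Cxcl2 past the filter, its means were 0.434 FPKM with miR-Ctrl and 0.955 FPKM with miR-204. The paired fit without replicate 2 still tested and called Cxcl2 (adjusted p = 0.0457), because the filter was set on all 8 libraries. Cxcl2 rose in the paired fit (log2 fold change 0.43 ± 0.096 SE, adjusted p = 0.0354) but not with centred libraries (adjusted p = 0.0594), and it passed in 3 of 9 paired fits, with adjusted p from 0.0223 to 0.115.

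The promoters of Cxcl1, Cxcl2 and Ccl20 are shown. Of the genes present in the set of RefSeq promoters (GRCm38.p6) searched here, these were the ones with a match to the kappa B consensus. Each run reaches from 250 bases before the start to 50 after it, and capitals mark the match to the kappa B consensus bound by NF-kB. Cxcl1 (chr5:90890995-90891294, plus strand), Cxcl2 (chr5:90903649-90903948, plus strand) and Ccl20 (chr1:83116516-83116815, plus strand) read as follows.
Cxcl1: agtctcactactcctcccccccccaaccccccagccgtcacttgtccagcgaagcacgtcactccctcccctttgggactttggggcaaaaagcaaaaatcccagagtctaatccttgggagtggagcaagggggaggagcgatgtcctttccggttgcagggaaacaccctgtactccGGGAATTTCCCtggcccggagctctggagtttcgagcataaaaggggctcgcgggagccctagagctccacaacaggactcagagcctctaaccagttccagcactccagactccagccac
Cxcl2: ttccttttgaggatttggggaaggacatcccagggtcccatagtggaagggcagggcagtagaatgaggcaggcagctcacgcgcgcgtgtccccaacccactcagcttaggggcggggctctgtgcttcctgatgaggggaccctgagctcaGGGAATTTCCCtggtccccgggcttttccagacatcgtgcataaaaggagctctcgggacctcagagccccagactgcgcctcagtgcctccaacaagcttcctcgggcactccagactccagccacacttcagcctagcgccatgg
Ccl20: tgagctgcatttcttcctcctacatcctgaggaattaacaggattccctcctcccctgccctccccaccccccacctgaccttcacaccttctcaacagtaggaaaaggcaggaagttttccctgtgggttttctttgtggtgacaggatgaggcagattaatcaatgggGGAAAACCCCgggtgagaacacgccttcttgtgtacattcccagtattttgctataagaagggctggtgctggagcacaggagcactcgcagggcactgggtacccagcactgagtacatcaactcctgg
In Cxcl1 and Cxcl2 the consensus of 10 bases matched once on each strand, and the 2 matches lie 1 base apart. Together they cover the 11 bases GGGAATTTCCC, from position -71 to -61 relative to the start in Cxcl1 and from -97 to -87 in Cxcl2. Ccl20 had 1 match on the minus strand, from -80 to -71. That set held promoters for 5 of the 10 genes, so those of Ccl2, Ccl5, Ccl7, Cxcl5 and Cxcl16 were not searched. The other 2 of the 5, Cxcl12 and Cx3cl1, held no match in this window. Of 32851 promoters of this length, 8.46% held the kappa B consensus on either strand, 7.81% the AP-1 word TGANTCA and 3.44% an interferon element, and these last motifs were in none of the 5. A match is a description of the letters, not a shown binding site.

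The monocyte attractants Ccl2 and Ccl7 are neighbours on the plus strand of chromosome 11, at 82035571 to 82037453 and 82045712 to 82047525. Ccl2 (20296) was at 20.9, 460.5, 1.51 and 1.63 FPKM in miR-Ctrl replicates 1 to 4 and at 46.2, 536, 3.86 and 2.95 FPKM in the miR-204 libraries. Each miR-204 library was above the miR-Ctrl library of its number, by 2.21-fold, 1.16-fold, 2.56-fold and 1.80-fold. The group means of 121 ± 226 and 147 ± 260.2 FPKM (SD, n = 4 each) rest almost wholly on replicate 2. Without it they were 8.0 ± 11.1 and 17.7 ± 24.7 FPKM (n = 3 each). Ccl2 rose in the paired fit (log2 fold change 0.72 ± 0.14 SE, adjusted p = 0.0250) and also with centred libraries (adjusted p = 0.0345). It passed in 5 of 9 paired fits and missed without the filter (adjusted p = 0.0756) and without both libraries of replicate 1, 3 or 4 (adjusted p = 0.101, 0.0991 and 0.107).

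Ccl7 (20306), which shares the receptor Ccr2 with Ccl2, was at 14.7, 218, 0.381 and 1.86 FPKM with miR-Ctrl and at 14.9, 154, 1.77 and 1.24 FPKM with miR-204. It was higher in pairs 1 and 3 and lower in pairs 2 and 4, and its log2 fold change of 0.045 passed neither test (adjusted p = 0.999, and 0.913 with the block). The paired 95% interval, from -0.52 to 0.61, was the widest of the 10, and the sign turned with centred libraries (-0.019). The difference between Ccl2 and Ccl7 was not tested.

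Ccl5 and Ccl20 act mainly on lymphocytes and dendritic cells. Ccl5 (20304; chromosome 11, 83525778 to 83530518, minus strand) had the largest change of the 10. It was at 1.44, 21.1, 0.367 and 0.505 FPKM in miR-Ctrl replicates 1 to 4 and at 3.88, 36.5, 2.29 and 1.67 FPKM in miR-204 replicates 1 to 4. The ratios within pairs were 2.70, 1.73, 6.25 and 3.31. Both miR-Ctrl values of replicates 3 and 4 lay below 1 FPKM, where few fragments are counted and a ratio is imprecise. Ccl5 rose in the paired fit (log2 fold change 0.97 ± 0.087 SE, adjusted p = 0.00440) and not in the comparison without the block (adjusted p = 0.854).

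Ccl20 (20297; chromosome 1, 83116766 to 83119167, plus strand) was at 5.85, 25.1, 0.590 and 0.617 FPKM with miR-Ctrl and at 8.60, 29.6, 2.13 and 0.989 FPKM with miR-204. Again the groups overlapped while all 4 pairs were higher. It rose in the paired fit (0.50 ± 0.12 SE, adjusted p = 0.0431), close to the threshold, and did not pass with centred libraries (adjusted p = 0.0655). It passed in 2 of 9 paired fits, with adjusted p from 0.0264 to 0.146.

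Cxcl12, a largely constitutive chemokine that retains stem cells and leukocytes through Cxcr4, was the most abundant of the 10 in 4 libraries, namely miR-Ctrl replicates 1, 3 and 4 and miR-204 replicate 4. Cxcl1 held that place in miR-204 replicates 1 to 3 and Cxcl5 in miR-Ctrl replicate 2. Cxcl12 (20315; chromosome 6, 117168535 to 117181367, plus strand) was at 34.9, 80.4, 3.51 and 8.36 FPKM with miR-Ctrl and at 42.8, 74.5, 5.73 and 10.2 FPKM with miR-204. Replicates 1 and 2 were high in both groups, and pair 2 alone was lower with miR-204. Its log2 fold change of 0.25 passed neither test (adjusted p = 0.982, and 0.131 with the block). It passed the paired test only when both replicate 2 libraries were left out (0.37, adjusted p = 0.0171).

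Cxcl16 and Cx3cl1 differ from the others in being made as membrane-anchored proteins on a mucin-like stalk, from which proteases release the soluble chemokine. Cxcl16 (66102; chromosome 11, 70453983 to 70459984, minus strand) was at 1.75, 2.58, 1.56 and 1.43 FPKM with miR-Ctrl and at 4.15, 4.18, 2.90 and 2.86 FPKM with miR-204. It was the only one of the 10 whose groups did not overlap, which held for 4.32% of all tested genes in the direction of miR-204 above miR-Ctrl. It also had the smallest spread within groups, with an SD of 0.24 on the log2 scale where the other 9 genes ranged from 1.06 to 4.19 and the median of all tested genes was 0.14. Cxcl16 went from 1.83 ± 0.516 to 3.52 ± 0.740 FPKM (SD, n = 4 each), a log2 fold change of 0.68 with an adjusted p of 0.234 without the block and an adjusted p of 0.00591 with it. It passed in 8 of 9 paired fits and missed without both libraries of replicate 4 (adjusted p = 0.0525).

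Cx3cl1 (20312; chromosome 8, 94772009 to 94782427, plus strand), also called fractalkine, was at 6.19, 22.9, 3.07 and 3.91 FPKM in miR-Ctrl replicates 1 to 4. With miR-204 it was at 11.3, 28.2, 5.73 and 6.69 FPKM. Every pair was higher, by 1.82-fold, 1.23-fold, 1.86-fold and 1.71-fold. It rose in the paired fit (0.61 ± 0.082 SE, adjusted p = 0.0108) and with centred libraries (adjusted p = 0.0122), but not without the block (adjusted p = 0.844). It passed in 6 of 9 paired fits and missed without both libraries of replicate 1, 3 or 4 (adjusted p = 0.0647, 0.0527 and 0.0791).

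In all, 7 of the 10 genes were higher with miR-204 in 4 of 4 pairs, a pattern shown by 33.9% of all tested genes. These were the 6 that passed the paired test and Cxcl1. Medians of the 10 differences were 0.55, 0.24, 0.86 and 0.28 on the log2 scale in pairs 1 to 4, where the medians of all tested genes were 0.052, 0.044, 0.097 and 0.069. With the sign counted, the lowest difference lay in pair 2 for 8 of the 10 genes, as it did for 40.2% of all tested genes. The highest lay in pair 3 for 7, as for 37.6%. Whether pair 2 differed from the others was not tested.

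**Figure D2:**
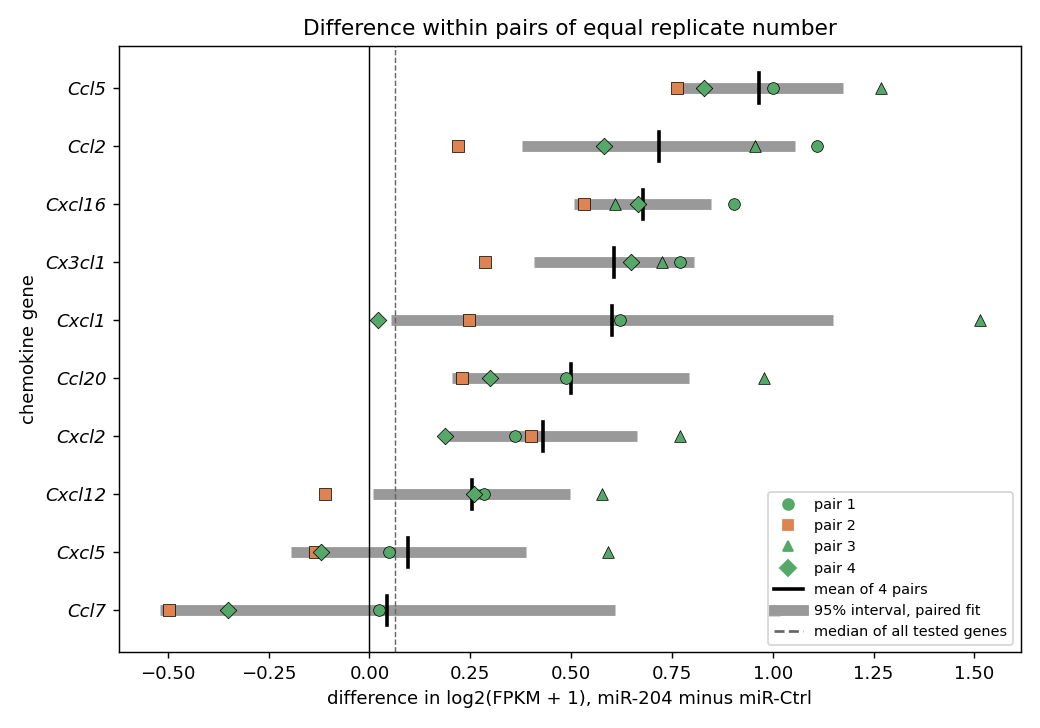
Difference in log2(FPKM + 1), miR-204 minus miR-Ctrl, within each pair of equal replicate number (points; pair 2 in orange), with the mean of the 4 pairs (black bar) and the 95% interval of the paired fit (grey band). Ccl5 lies farthest to the right with 0.97, and the intervals of Ccl7 and Cxcl5 span 0.

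Set against the mean of replicates 1, 3 and 4 of its own group, replicate 2 was higher by 7.86 on the log2(FPKM + 1) scale for Cxcl5 with miR-Ctrl and by 7.55 with miR-204. The same differences were 6.49 and 6.01 for Cxcl1, 6.46 and 5.80 for Ccl2, and 5.79 and 5.07 for Ccl7. They were smallest for Cxcl16, at 0.47 and 0.28, and the median of all tested genes was 0.096. Averaged over both groups, the shift of Cxcl5 ranked 2nd, that of Cxcl1 8th, that of Ccl2 9th and that of Ccl7 12th of 11612 genes. In all 10 genes the shift was larger with miR-Ctrl than with miR-204. By its definition this only restates that the difference in pair 2 lay below the mean of pairs 1, 3 and 4. The share of all tested genes with that order was not computed. No test was made of replicate 2 against the others, because the samples were known to stand apart.

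**Figure D3:**
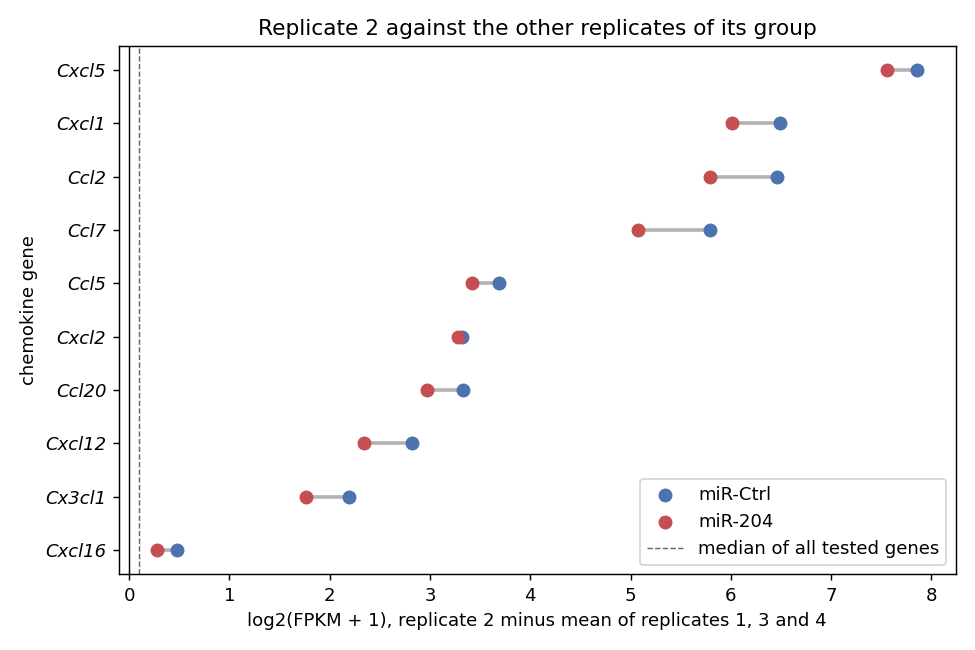
Height of replicate 2 over the mean of replicates 1, 3 and 4 of its group, in log2(FPKM + 1), for the 10 chemokine genes in the miR-Ctrl (blue) and miR-204 (red) libraries. Cxcl5 is at the top with 7.86 and 7.55 and Cxcl16 at the bottom with 0.47 and 0.28, still above the median of all tested genes (dashed, 0.096).

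Saa3 and Lcn2, acute-phase genes, and the collagenase gene Mmp13 are other genes that set replicate 2 apart. Saa3 reached 26618 FPKM in miR-Ctrl replicate 2 and 16455 FPKM in miR-204 replicate 2, and its highest value in the other 6 libraries was 225 FPKM. In pair 2 the ratio of miR-204 to miR-Ctrl was 0.618 for Saa3, 0.604 for Lcn2 and 0.558 for Mmp13, and among the chemokines it was likewise below 1 for Ccl7 (0.707), Cxcl5 (0.911) and Cxcl12 (0.926). For the other 7 it ranged from 1.16 for Ccl2 to 1.73 for Ccl5. The summed FPKM of chondrocyte markers moved the other way. Over 10 markers, led by Col2a1, the sum came to 12266 and 12460 FPKM in replicate 2 and to between 24555 and 39903 FPKM elsewhere. Such a sum rests mostly on its most abundant genes and does not describe each marker.

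Likeness between genes was measured as the mean absolute difference of gene-centred log2(FPKM + 1) profiles over the 8 libraries. Within the 10, Ccl2 and Cxcl1 were most alike (0.26), followed by Ccl5 and Cxcl2 (0.27) and by Ccl7 and Cxcl1 (0.39). Outside them, Steap4, a metalloreductase gene, was the nearest gene to Cxcl1 (0.25), Ccl2 (0.36) and Cxcl5 (0.53). The second nearest were C3, the central complement component, for Cxcl1 (0.40) and Ccl2 (0.46), and Mmp13 for Cxcl5 (0.60). Cxcl2 was nearest to the acute-phase gene Saa1 (0.16) and to Tnfrsf9 (0.19), Ccl7 to Serpina3h (0.32) and the lipopolysaccharide-binding protein gene Lbp (0.46), and Ccl20 to Xdh (0.27) and Prnd (0.33). Ccl5 was nearest to Gbp6 (0.37) and the cholesterol hydroxylase gene Ch25h (0.38), and Cxcl12 to the adhesion molecule gene Icam1 (0.28) and to Serpina3n (0.29). For Cx3cl1 the nearest were Bst1 (0.094) and the hypoxia factor gene Epas1 (0.16), and for Cxcl16 Cda (0.11) and 1500015O10Rik (0.12). All these distances are over the same 8 libraries, replicate 2 included, and describe only the profiles.

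The mature miR-204-5p is shown with its seed, bases 2 to 8, in capitals, and below it are the seed matches of 7 or more bases in the 3′ UTRs of the 10 genes. The labels do not say which arm was transfected, and the 5p arm was taken. In the target sites, written as DNA on the sense strand, capitals mark the bases that match the seed, with the adenine opposite the first base of the microRNA where it is present.
miR-204-5p: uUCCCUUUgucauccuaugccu
Cxcl5 (8mer): ctttgatgagaAAAGGGAAaccattgtccc
Cxcl12 (7mer-m8): gttctgcttagAAAGGGAtgccccaccctt
Ccl20 (7mer-A1): atattatgtttAAGGGAAtagtttatatgg
These windows lie in single exons, at chr5:90760601-90760630 for Cxcl5, chr6:117177674-117177703 for Cxcl12 and chr1:83119001-83119030 for Ccl20, all on the plus strand of GRCm38. Thus 3 of the 10 genes had a match of 7 or 8 bases in the longest 3′ UTR of GENCODE M21, beside 24.0% of the 11192 tested genes for which a 3′ UTR was annotated. None of the 3 was called lower: Cxcl5 was at 0.096, Cxcl12 at 0.25 and Ccl20 rose by 0.50 on the log2 scale. Ccl7 and Cx3cl1 had only 6-base matches, 2 each. Ccl2, Ccl5, Cxcl1, Cxcl2 and Cxcl16 had none, as did 63.1% of the 11192 genes. No other annotated 3′ UTR of these genes held a better match, and whether the shorter ones keep the sites was not examined. The AU-rich word TATTTAT, found in unstable cytokine transcripts, occurred 5 times in the 3′ UTR of Cxcl2, 4 times in that of Cxcl1, 1 time each in Ccl20, Cxcl5, Cxcl12 and Cx3cl1, and 0 times in Ccl2, Ccl5, Ccl7 and Cxcl16. It was held by 30.7% of the 11192 genes, whose 3′ UTR median length was 1191 bases. The word was chosen with the expression values known.

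Of 28 other chemokine ligand genes, 23 were below the filter, and the 5 tested had a median of 0.14. Among the 5, Cxcl3 passed the filter only through replicate 2, with means of 0.167 FPKM (miR-Ctrl) and 0.457 FPKM (miR-204) without it. Cxcl10, an interferon-induced attractant of T cells, rose in the paired fit (0.87, adjusted p = 0.0336), 1 of 5 beside 12.4% of all tested genes. It did not pass with centred libraries (adjusted p = 0.0520). It was at 5.20, 9.48, 1.26 and 0.810 FPKM with miR-Ctrl and at 9.63, 20.6, 1.56 and 4.07 FPKM with miR-204. Cxcl14 (0.13) and Ccl27a (0.11), the most abundant of these ligands, passed neither test. Chemokine receptors were scarce, with 22 of 23 below the filter. The decoy receptor Ackr3, which takes up Cxcl12, was at 13.3 ± 2.59 and 11.5 ± 2.65 FPKM (-0.20, adjusted p = 0.126 with the block), and Ackr4 came next with a mean of 0.429 FPKM.

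Among 11 tested genes that release, trim or anchor chemokines, with a median of 0.21, 0 passed without the block (0 also at an unadjusted p under 0.05 by limma) and 3 rose with it, beside 12.4% of all tested genes. They were Adam10 (0.23, adjusted p = 0.0202) and Adam17 (0.21, adjusted p = 0.0200), proteases that shed Cx3cl1 and Cxcl16, and Rhbdf2 (0.25, adjusted p = 0.0294), which escorts Adam17 to the cell surface. With centred libraries only Adam10 passed (adjusted p = 0.0416), 1 of 11 beside 4.99%. Timp3 (0.017), an inhibitor of such proteases, and the heparan sulfate proteoglycan gene Sdc4 (0.20) had the highest means and did not pass. Mmp9, also among the 11, passed the filter only through replicate 2, with means of 0.217 FPKM (miR-Ctrl) and 0.235 FPKM (miR-204) without it.

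Of 36 tested genes of NF-kB signalling and its upstream cytokines, 0 passed without the block (0 also at an unadjusted p under 0.05 by limma), and 9 rose and 0 fell with it, beside 12.4% and 2.83% of all tested genes. With centred libraries 3 of the 36 rose, beside 4.99% of all tested genes. The 36 genes had a median of 0.094. Tlr2 (0.50), a receptor for bacterial lipoproteins, Nfkbie (0.45), an NF-kB inhibitor, and Relb (0.25), an NF-kB subunit, were those 3. The receptor genes Tnfrsf1b (0.44) and Tlr4 (0.27) and the feedback inhibitor gene Tnfaip3 (0.25) did not pass there. Tnfrsf1a (0.14) and Csf1 (0.33), of the highest means, passed neither test. Il1b and Tnf, named after their values were seen, were below the filter, with highest library values of 0.0279 and 0.157 FPKM. Of 9 genes that act on the decay of inflammatory transcripts, 2 rose in the paired fit, Zfp36l2 (0.22) and Cnot7 (0.17), beside 12.4% of all tested genes. With centred libraries Cnot7 did not pass, which left 1 of 9 beside 4.99%. Zfp36l1 (0.13) did not pass.

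**Figure D4:**
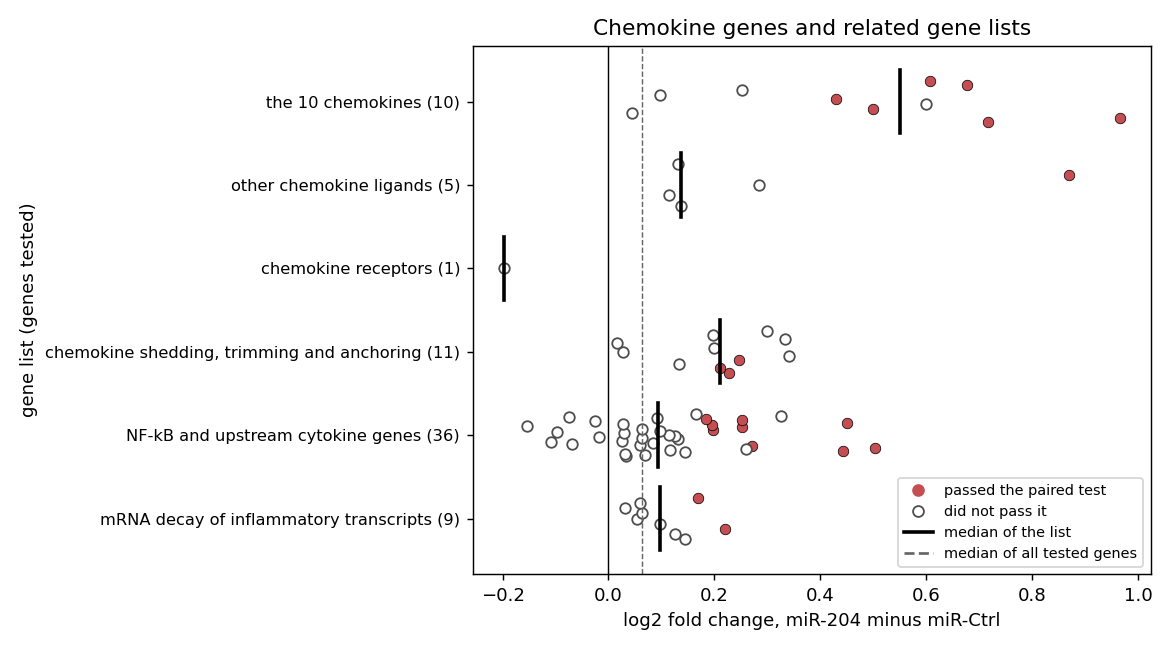
Log2 fold change, miR-204 minus miR-Ctrl, of every tested gene in the 6 lists, with the number tested in brackets, filled where the paired test was passed, and with the median of each list (black bar). The 10 chemokines have a median of 0.55 and the NF-kB list one of 0.094, beside 0.064 for all tested genes (dashed).

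Cells other than chondrocytes can also make these chemokines, so their markers are given beside the results. Macrophage markers summed to between 3.48 and 13.0 FPKM over 10 genes with miR-Ctrl and to between 8.72 and 16.7 FPKM with miR-204. That sum was nearly all Lyz2 and Cd68. Of the 2 tested, Cd68 rose in the paired fit (1.01, adjusted p = 0.00997), beside 12.4% of all tested genes. The defining leukocyte gene Ptprc, which encodes CD45, had a highest library value of 0.0309 FPKM, and 8 of the 10 macrophage markers had a mean below 1 FPKM. Neutrophil markers (6 genes found) summed to at most 3.55 FPKM, in miR-Ctrl replicate 2, with S100a9 listed at 0 throughout. Markers of T and NK cells summed to at most 0.0266 FPKM and those of endothelial cells to at most 0.484 FPKM. Markers of fibroblasts and synovial lining summed to 19.3 to 58.3 FPKM with miR-Ctrl and 35.6 to 71.6 FPKM with miR-204. Of these markers, 2 of 4 tested, Dpt (0.69) and Thy1 (0.42), rose in the paired fit, beside 12.4% of all tested genes. Osteoblast markers summed to 22.8 and 23.6 FPKM in replicate 2 and to between 5.22 and 11.7 FPKM elsewhere. Smooth muscle and pericyte markers, mainly Acta2, summed to 91.1 to 110.2 FPKM with miR-Ctrl and to 171 to 245 FPKM with miR-204. Acta2 rose even without the block (1.01, adjusted p = 0.0242), 1 of 3 genes of all 11612 to do so. Of these 5 markers, 3 were below the filter. Both tested ones, Acta2 and Mcam (0.82), rose in the paired fit and with centred libraries, beside 12.4% and 4.99% of all tested genes. Of the 10 chondrocyte markers, 2, Hapln1 (-1.04) and Comp (-0.17), fell in the paired fit, beside 2.83% of all tested genes. With centred libraries 3 of the 10 fell, beside 502 of all 11612. The part of such cells in the chemokine values was not tested.

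Depth is known only relative to miR-Ctrl replicate 1. It was 0.772 and 0.798 in the 2 libraries of replicate 2 and between 0.929 and 0.962 in the other 5, so the high chemokine values of replicate 2 came from the shallowest libraries. FPKM gives no fragment counts, and values below 1 FPKM rest on few fragments.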

How the data were processed

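RNA of 8 libraries (4 miR-Ctrl, 4 miR-204) was quantified by the authors with TopHat and Cufflinks 2.2.1 on mm10, per the submitters' processing notes, and the deposited values are FPKM per gene. Aligner settings and the annotation used were not given in the sources used here. Groups follow the labels.

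From these values, log2(FPKM + 1) was tested with limma 3.58.1 (R 4.3.3; trend in the variance, two-sided, Benjamini-Hochberg adjustment, threshold 0.05) over the 11612 genes whose mean reached 1 FPKM. Differences between groups are on that scale, which understates those of low genes. The mean for the filter was over all 8 libraries, so a gene could reach 1 FPKM through replicate 2 alone. The groups were compared without a block, and again with the replicate number as a block. Deviations from the group means correlated between equal numbers at 0.44, 0.816, 0.756 and 0.619 across genes, and each library was most like that of its own number, so the numbers were taken to pair the samples, and paired values stand beside results whose call they change. Alternatives were another pseudocount, no filter, centred libraries, quantile normalization and leaving out libraries.

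Depth relative to miR-Ctrl replicate 1 was read from the steps of low values. On simulated data the unpaired fit recovered 55% of 1.5-fold and 84% of 2-fold changes, and the paired fit 90% and 98%, with 0 and 5 unchanged genes called. The changed genes were drawn at random from the more abundant tested genes only. These shares therefore do not give the recovery for low genes or for the chemokines. The unpaired SE had a median of 0.098 over all tested genes and ran from 0.64 to 2.55 for the chemokines other than Cxcl16.

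All 10 chemokines are named. Of each other list, genes past the threshold (at most 6, by size of change) and the 2 of highest mean are named, and for each chemokine the 2 nearest profiles. The members and lists were chosen with earlier results of these data known. Seed matches were sought in the longest protein-coding 3′ UTR of GENCODE M21 (GRCm38), and motifs in RefSeq promoters on both strands. Python 3.11.15, pandas 2.3.3, numpy 2.4.6 and matplotlib 3.10.9 were used.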

Additional observations from a re-analysis of the deposited data

Results flagged for a closer look

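Of 20 groups of 4 libraries (10 chemokines in 2 groups), 1 held a library far from the others: Cxcl2 in miR-Ctrl replicate 2, where the gap to the nearest library took up 0.833 of the whole range on the log2(FPKM + 1) scale, above Dixon's 95% limit for 4 samples. For independent groups, chance alone gives about 1 such group in 20. These groups share the same 8 libraries, so the count cannot be weighed against that rate. Replicate 2 was nonetheless the highest library in all 20 groups, and 38.4% of all tested genes were highest in replicate 2 of both groups.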

How the results depend on the processing

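Without the replicate block, 0 of the 10 chemokines were called higher under any alternative, and 0 were called lower under any alternative, paired or not. With the replicate block, which pairs equal numbers, 6 were higher, 4 with centred libraries, 4 with a pseudocount of 0.1, 3 without the filter and 5 with quantile normalization. Leaving out both libraries of replicate 1, 2, 3 or 4 gave 2, 7, 2 and 1 in the paired fit. Of all tested genes, 24 were called without the block, 9 without the filter, 63 with centred libraries and 73 with quantile normalization. The paired fit called 1765, and 1081 with centred libraries, 1766 with a pseudocount of 0.1, 739 without the filter and 1091 with quantile normalization. Without both libraries of replicates 1, 2, 3 and 4 the paired fit called 172, 3303, 385 and 90, and the unpaired fit 0, 18, 0 and 0. Leaving out 1 library called between 1 and 20. The cause of these changes was not tested.

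The sign turned for Ccl7 with centred libraries (-0.019), quantile normalization (-0.044) and without replicate 3 (-0.27), with or without the block, and for Cxcl5 with quantile normalization (-0.041) and without replicate 3 (-0.069). Leaving out single libraries or a replicate gave ranges from -0.73 to 2.33 for Ccl2, from -1.22 to 1.49 for Ccl7, from -0.24 to 1.33 for Ccl20, from -0.90 to 2.22 for Cxcl1, from -0.39 to 1.26 for Cxcl2, from -1.79 to 2.06 for Cxcl5 and from -0.43 to 0.96 for Cxcl12. Ccl5 (0.11 to 1.89), Cxcl16 (0.60 to 0.80) and Cx3cl1 (0.17 to 1.16) stayed above 0. Fragment counts are unknown, so the precision of values below 1 FPKM cannot be given.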
